A study of Rattus norvegicus with 12 samples.

Results

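Fibrillar collagen chains are the 9 genes Col1a1, Col1a2, Col2a1, Col3a1, Col5a1, Col5a2, Col5a3, Col11a1 and Col11a2, taken by symbol from the deposited gene tables and followed through all 12 rat libraries. They are 9 of the 20400 genes listed in at least 1 of the tables. The table of the BMSC libraries lists 18616 genes and 8 of the chains, without Col2a1, and the table of the BF libraries lists 19355 genes and all 9. Each listed chain passed the filter on low values, a mean of at least 1 normalized count, so 8 and 9 chains were tested.

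Fibrillar collagens are the rope-forming proteins of connective tissue. Their chains wind into a triple helix in the endoplasmic reticulum, are trimmed of their propeptides outside the cell, and assemble side by side into cross-linked fibrils. Type I collagen, made of the Col1a1 and Col1a2 chains, dominates bone, tendon, fibrocartilage and scar, and type III, made of the Col3a1 chain alone, joins it in soft and healing tissue. Type II, made of the Col2a1 chain, is the collagen of hyaline cartilage. Types V and XI are minor chains that sit inside the fibrils of types I and II and set where fibrils start and how thick they become.

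The libraries fall into 4 groups of 3, all from wild-type rat bone marrow cells kept in a medium that induces cartilage formation. BMSC-C are control mesenchymal stem cells, the progenitors of bone, cartilage and fat cells in marrow. BMSC-CT cells received CTGF, the connective tissue growth factor, over 1 week before TGF-β1, a transforming growth factor. BF-C are cells labelled as fibrotic BMSCs, which the design text calls induced fibrotic chondrocytes, under the control condition, and BF-D are such cells with docetaxel, a drug that binds microtubules. How the BF cells were made, and the dose and length of the docetaxel exposure, are not given in the sources used here. The labels do not name separate animals or cultures behind the replicates, so the tests measure the spread between these samples, which may be technical.

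Depth ran from 15580310 to 19870047 reads per library. Of the libraries, 2 stood apart. In BMSC-CT replicate 3 there were reads for 14621 genes, where every other library had at least 16100, and the share of ribosomal protein genes was 15.5% and elsewhere no more than 6.65%. That share was 2.89% in BF-D replicate 2 and no more than 1.85% in any BF library beside it. In both libraries long genes had relatively fewer reads, with a Spearman rho across genes between length and the deviation from the mean of their own group of -0.404 and -0.356. The chains have deposited gene lengths of 4475 to 7673 bases. Test results that rest on these libraries are given with and without them. Levels, shares, ratios and marker sums include them throughout. Hyaline chondrocyte markers were near 0 in every group: the list took between 0.000139% and 0.000590% of reads, and Sox9, the master regulator of cartilage, had 12 to 80 reads per library. The macrophage list of 17 genes took 0.895 to 1.08% of the reads in BMSC-C, 1.10 to 1.41% in BMSC-CT and at most 0.00667% in the BF libraries, where Cd163, C1qa, C1qb and C1qc were not listed.

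Type I collagen was first looked at by its level in each group, on a scale of reads per kilobase of the deposited gene length per 1000000 reads (RPKM), which allows comparison between genes. Col1a1 was at 282 ± 32.6 (SD, n = 3) in BMSC-C and was at 1136 ± 347 in BMSC-CT, while BF-C stood at 8049 ± 88.8 and BF-D at 6701 ± 603. By reads it ranked between 49 and 67 among all genes in the BMSC-C libraries, between 7 and 22 in BMSC-CT, and at 1 in all 6 BF libraries. Col1a1 alone took 4.69% ± 0.0517 of all reads in BF-C. The authors normalized the BMSC and BF tables separately, which does not enter RPKM, computed here from recovered reads over the library total. Cell preparation and any batch cannot be told apart between BMSC and BF libraries. Differences between them are thus given as levels without a test.

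All chains listed in both tables were at their highest level in a BF group. Col3a1 was at 21.4 ± 6.97 RPKM in BMSC-C and 127 ± 39.2 in BMSC-CT, BF-D was at 1220 ± 31.9 and BF-C at 1527 ± 15.0, and no neighbours in that order overlapped. Col5a2 stood at 220 ± 26.2 RPKM in BMSC-C and 218 ± 116 in BMSC-CT, with BF-D at 456 ± 22.9 and BF-C at 490 ± 6.76. In BMSC-C its level was thus below that of Col1a1 only. Col5a1 was at 23.2 ± 2.63 RPKM in BMSC-C and 19.8 ± 12.1 in BMSC-CT, with BF-D at 136 ± 35.7 and BF-C at 182 ± 0.907, and the BMSC groups overlapped for both Col5a2 and Col5a1. BMSC-CT replicate 3 pulled both means down. Replicates 1, 2 and 3 of BMSC-CT were at 309, 256 and 87.6 RPKM for Col5a2 and at 30.2, 22.5 and 6.59 for Col5a1. For Col5a2 the overlap rested on replicate 3.

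The partner chain of Col1a1 and the scarcer chains follow. Col1a2 was at 92.6 ± 35.8 RPKM in BMSC-C and 266 ± 205 in BMSC-CT, BF-D was at 643 ± 422 and BF-C at 681 ± 173, and its BMSC-CT, BF-D and BF-C libraries overlapped in turn. Col11a1 was at 5.29 ± 1.35 RPKM in BMSC-C and 13.1 ± 7.69 in BMSC-CT, which overlapped on this scale, and BF-D was at 46.1 ± 4.54 and BF-C at 63.9 ± 1.87. Col5a3, a chain of type V with a narrow tissue range, was at 1.26 ± 0.141, 3.34 ± 0.921, 6.37 ± 0.627 and 7.46 ± 0.153 RPKM in the same order, with no overlap. These values show the same rank of groups for both chains. Col11a2 did not exceed a group mean of 0.595 RPKM, and rested on 5 to 84 reads per library. Col2a1 had 5, 2 and 2 reads in BF-C replicates 1, 2 and 3 and 0, 4 and 10 in BF-D, where 0 reads allow a share of up to 1.93e-05% of reads, counting error only.

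**Figure D1:**
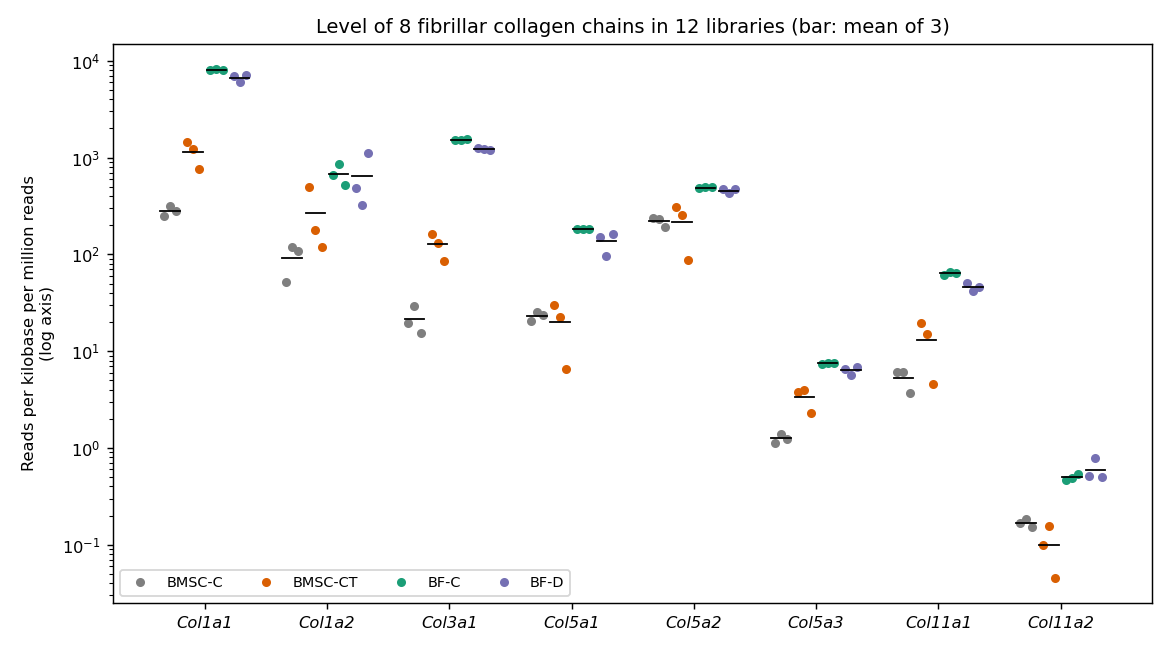
Level in RPKM (log axis) of the 8 chains listed in both tables, with a point for each of the 3 libraries of a group and a line at the group mean. Col1a1 runs from 282 in BMSC-C to 8049 in BF-C, and Col11a2 stays below 1 in every library.

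All chains together took 0.304 to 0.377% of the reads in BMSC-C libraries and 0.582 to 1.31% in those of BMSC-CT. In BF-C their share was 6.02 to 6.25%, and in BF-D it was 4.52 to 5.60%. These are bulk samples, so fewer cells of a type and less RNA per cell cannot be told apart.

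The make-up of this pool, as each chain's share of the chains' reads per kilobase, differed between BMSC-C, BMSC-CT and the BF libraries. In BMSC-C, Col1a1 held 43.7% ± 1.33 (SD, n = 3) and Col5a2 held 34.3% ± 5.41, with Col1a2 at 14.1% ± 4.60 and Col3a1 at 3.26% ± 0.752. In BMSC-CT, Col1a1 held 65.4% ± 6.54, Col1a2 13.8% ± 5.73, Col5a2 11.6% ± 2.98 and Col3a1 7.29% ± 0.700. The chains of types V and XI together held 35.1 to 45.2% per library in BMSC-C and 9.54 to 16.3% in BMSC-CT, without overlap. In BF-C the pool was led by Col1a1 at 73.2% ± 0.846 and Col3a1 at 13.9% ± 0.438, and Col5a2 held 4.46% ± 0.115. The shares in BF-D were 72.9% ± 2.05, 13.4% ± 1.61 and 4.98% ± 0.334 for these chains. Col1a1 and Col3a1 thus differed from BF-C by less than the SD within BF-D. Types V and XI held 6.63 to 7.28% over all 6 BF libraries.

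**Figure D2:**
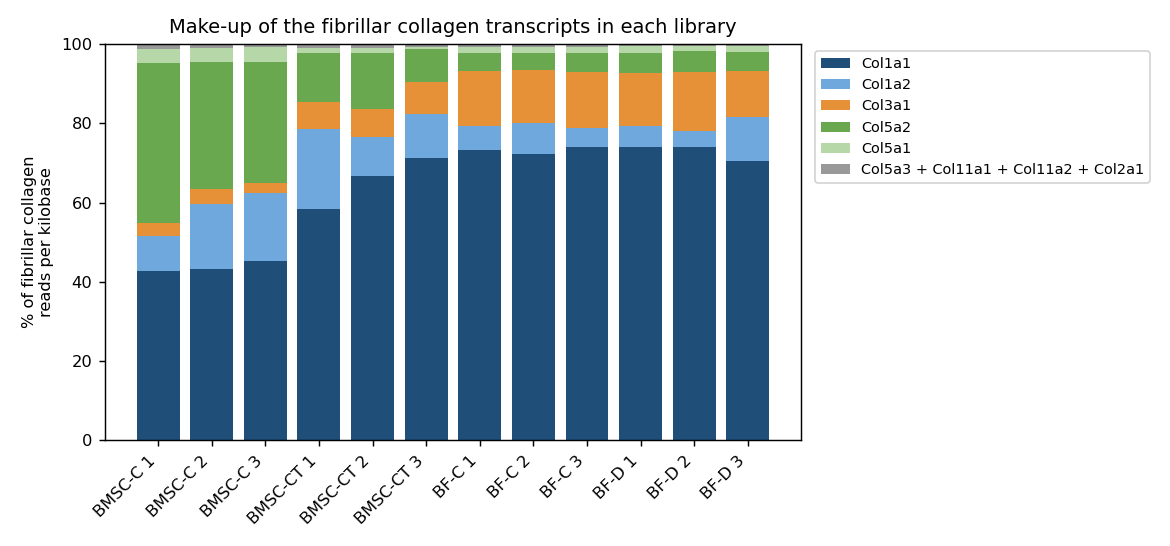
Stacked bars of each chain's share, in percent, of the chains' reads per kilobase in each of the 12 libraries, with Col5a3, Col11a1, Col11a2 and Col2a1 summed. Col5a2 holds 34.3% on average in BMSC-C against 11.6% in BMSC-CT, and Col1a1 and Col3a1 fill most of every BF bar.

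CTGF followed by TGF-β1 went with higher levels of 4 of the 8 chains tested. Col1a1, Col3a1, Col5a3 and Col11a1 rose in BMSC-CT against BMSC-C, no chain fell, and Col1a2, Col5a1, Col5a2 and Col11a2 did not pass the test (limma, Benjamini-Hochberg adjusted p under 0.05 over 16818 genes). Of all genes tested, 7.70% passed as higher and 10.9% as lower. The libraries of the groups did not overlap for 5 chains, all higher in BMSC-CT, where 23.3% of all genes were higher and 28.9% lower without overlap. The median log2 fold change was 1.64 over the 8 chains and -0.15 over all genes. Markers moved between these groups too: the list of 11 mesenchymal stem cell genes took 0.371 to 0.409% of reads in BMSC-C and 0.0902 to 0.211% in BMSC-CT, and the macrophage list took the larger summed share in BMSC-CT. That sum was led by Lyz2, at 0.407% ± 0.0413 of reads in BMSC-C and 0.810% ± 0.12 in BMSC-CT, while 10 of the 17 macrophage genes had negative estimates. Of the 11 mesenchymal stem cell genes 4 were called lower, 6 did not pass and 1, Eng, was called higher (log2 fold change 1.23, limma adjusted p = 0.0153). Their lowest share, 0.0902%, was that of BMSC-CT replicate 3, and replicates 1 and 2 were at 0.211% and 0.197%. The part of these marker lists in the results for the chains was not tested.

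Col1a1 had 21241, 26497 and 24965 normalized counts in BMSC-C replicates 1, 2 and 3, and 133516, 122815 and 122177 in BMSC-CT. Every BMSC-CT library was far above every BMSC-C library, and the replicates of each group lay close together. The group means of 24234 and 126169 differed 5.21-fold, with a log2 fold change of 2.39 (SE 0.24, limma adjusted p = 0.0020). Its partner chain Col1a2 had 3382, 7661 and 7319 normalized counts in BMSC-C and 35838, 13760 and 14944 in BMSC-CT. The groups did not overlap, but the replicates of each group spread widely, with BMSC-CT replicate 1 the highest and BMSC-C replicate 1 the lowest. The log2 fold change of Col1a2 was 1.76 (SE 0.49, limma adjusted p = 0.0510), and it was 1.95 (adjusted p = 0.00975) without BMSC-CT replicate 3. DESeq2 on the recovered reads gave an adjusted p of 0.00476, beside 16.3% of all genes called higher by that tool.

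Col3a1 had 1356, 1997 and 1123 normalized counts in BMSC-C and 12397, 10919 and 11258 in BMSC-CT. This was the largest rise of any chain in this comparison, with the BMSC-CT libraries within a narrow band. The log2 fold change was 2.99 (SE 0.26, limma adjusted p = 0.00127), and the means differed 7.73-fold. Col3a1, Col1a1 and Col5a3 passed the test in every alternative run, among them without BMSC-CT replicate 3, where their log2 fold changes were 3.0, 2.41 and 1.79.

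The chains of types V and XI differed among themselves. Col5a3 had 99.2, 123 and 115 normalized counts in BMSC-C and 367, 414 and 385 in BMSC-CT, with no overlap. Its log2 fold change was 1.78 (SE 0.23, limma adjusted p = 0.00458). Col11a1, the chain that pairs with Col11a2 and Col2a1 in cartilage and with type V chains elsewhere, had 679, 672 and 437 normalized counts in BMSC-C and 2397, 2004 and 974 in BMSC-CT. The groups did not overlap on this scale, and replicate 3 was the lowest library of both groups. The log2 fold change of Col11a1 was 1.52 (SE 0.39, limma adjusted p = 0.0408). That call was lost with fewer libraries: the log2 fold change was 1.26 to 1.62 and the adjusted p between 0.0683 and 0.127 without any of BMSC-C replicates 1, 2 and 3 or BMSC-CT replicates 1 and 2, and 0.000299 (log2 fold change 1.91) without BMSC-CT replicate 3. Scaled to total reads it was 1.10 (adjusted p = 0.204).

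Col5a1 and Col5a2, which form the common type V molecule, overlapped between the groups. Col5a1 had 1937, 2407 and 2335 normalized counts in BMSC-C and 3146, 2535 and 1193 in BMSC-CT, so that the highest and the lowest library were both BMSC-CT. Col5a2 had 15540, 15039 and 12984 in BMSC-C and 22181, 19822 and 10928 in BMSC-CT, with the same pattern. Their log2 fold changes were -0.06 (SE 0.38, limma adjusted p = 0.907) and 0.22 (SE 0.31, adjusted p = 0.612). For both chains BMSC-CT replicate 3, the library with fewer reads on long genes, was the only BMSC-CT library below the BMSC-C range. Without it the log2 fold change of Col5a1 was 0.35 (adjusted p = 0.108) and that of Col5a2 was 0.53 (adjusted p = 0.0272), and once the dependence on gene length had been taken out of each library the values were 0.72 (adjusted p = 0.0440) and 0.81 (adjusted p = 0.0224). Under those settings 6 and 7 of the 8 chains were called higher, where 19.5% and 12.5% of all genes were. The length trend was taken against the mean of all 6 BMSC libraries, so a difference between the groups that follows length was removed too. Its removal moved the median log2 fold change of all genes from -0.15 to 0.026 and that of Col1a1 from 2.39 to 3.11. Col11a2, with 5 to 20 reads per BMSC library, had 15.4, 16.9 and 14.7 normalized counts in BMSC-C and 9.95, 16.9 and 8.05 in BMSC-CT (log2 fold change -0.46, SE 0.44, limma adjusted p = 0.448), and a difference was not detectable at this depth.

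**Figure D3:**
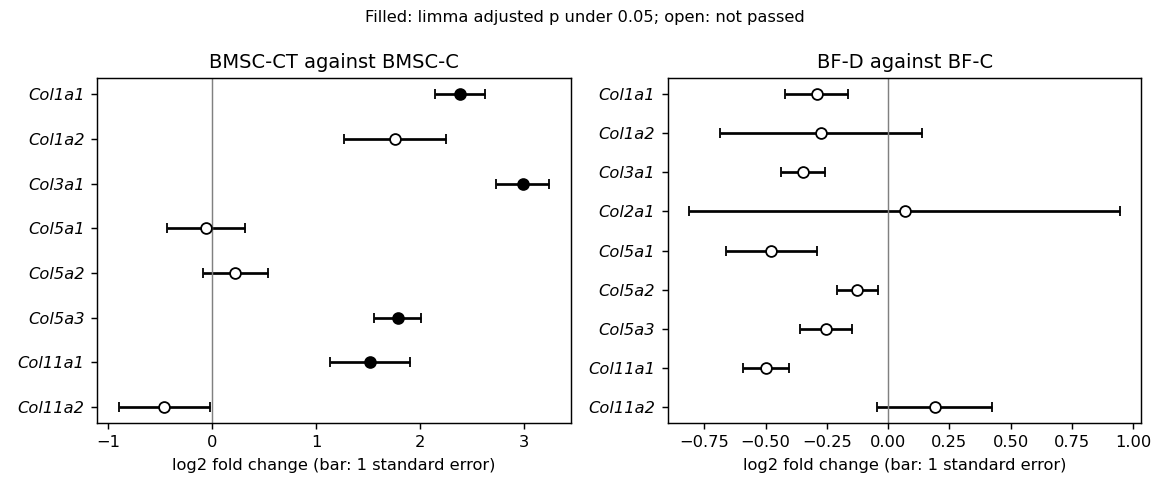
Log2 fold change of each chain from limma, with a bar of 1 standard error to each side, for BMSC-CT against BMSC-C (left) and BF-D against BF-C (right), on axes of different scale. Filled points passed an adjusted p under 0.05: Col1a1, Col3a1, Col5a3 and Col11a1 on the left and none on the right, where the estimates lie between -0.50 and 0.19.

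In normalized counts the 3 chains Col1a2, Col5a3 and Col11a1 lay higher in every BMSC-CT library while Col5a1, Col5a2 and Col11a2 overlapped. In RPKM Col11a1 overlapped too, so this split, drawn from these same data, depends on the scale. It depends on the setting as well: with the length trend removed, Col5a1 and Col5a2 were called higher (limma adjusted p = 0.0440 and 0.0224). Col1a2 did not pass the main test (limma adjusted p = 0.0510). The 6 chains of this split have a promoter entry in RefSeq (build GRCr8). Col1a1 and Col3a1, which rose most, and Col2a1 had no entry and could not be searched. For the 6 chains, the 250 bases before the annotated start were searched on both strands for CCAAT, the motif bound by NF-Y, and for TATAAA and GGGCGG. Of these, CCAAT was found in Col1a2, Col5a3 and Col11a1 and not in the other 3, and it occurs in 34.0% of 33469 promoter windows of this length. The sequences below run 5′ to 3′ on the strand of the gene, and capitals mark CCAAT or its reverse complement. In Col1a2 it begins 221 bases before the start and is followed by a TATAAA 170 bases before the start, so the bases around both are shown. In Col5a3 it begins 182 bases before the start, and in Col11a1 there are matches 230 and 77 bases before it. Col5a2 is shown as the abundant chain without a match.
Col1a2, chr4:33518307-33518406, plus strand: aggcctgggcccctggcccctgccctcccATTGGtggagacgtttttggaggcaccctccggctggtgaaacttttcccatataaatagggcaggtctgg
Col5a3, chr8:27625949-27626198, minus strand: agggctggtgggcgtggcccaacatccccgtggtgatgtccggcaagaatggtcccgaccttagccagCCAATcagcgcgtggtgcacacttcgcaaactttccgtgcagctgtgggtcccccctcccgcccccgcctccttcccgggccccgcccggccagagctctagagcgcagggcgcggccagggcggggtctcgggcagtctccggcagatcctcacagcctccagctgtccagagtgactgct
Col11a1, chr2:204508886-204509135, plus strand: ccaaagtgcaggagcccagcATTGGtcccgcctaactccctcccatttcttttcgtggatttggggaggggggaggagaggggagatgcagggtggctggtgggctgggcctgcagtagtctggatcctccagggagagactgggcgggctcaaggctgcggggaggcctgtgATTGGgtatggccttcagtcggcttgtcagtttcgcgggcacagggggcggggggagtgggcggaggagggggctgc
Col5a2, chr9:55090152-55090401, minus strand: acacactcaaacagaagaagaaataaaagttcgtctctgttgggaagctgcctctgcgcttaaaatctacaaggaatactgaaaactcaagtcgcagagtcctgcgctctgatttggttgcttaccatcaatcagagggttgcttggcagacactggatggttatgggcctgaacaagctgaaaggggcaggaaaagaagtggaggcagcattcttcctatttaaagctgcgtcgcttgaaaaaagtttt
GGGCGG, found in 30.5% of windows, was present in Col5a1, Col5a3, Col11a1 and Col11a2, thus among chains on both sides of that split. These matches describe letters in a window of the reference and were not measured here as binding sites. Col3a1 and Col5a2 are next to each other on chromosome 9, on opposite strands. Col3a1 rose with a log2 fold change of 2.99 while the estimate for Col5a2 was 0.22, and per kilobase the ratio of Col3a1 to Col5a2 was 0.0961 ± 0.0249 (SD, n = 3) in BMSC-C and 0.671 ± 0.258 in BMSC-CT, while BF-C was at 3.12 ± 0.0533.

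Chains that share a molecule did not keep a fixed ratio. Type I collagen is usually built with more alpha1 than alpha2 chains. Per kilobase the ratio of Col1a1 to Col1a2 was 4.82, 2.66 and 2.62 in BMSC-C and 2.86, 6.86 and 6.28 in BMSC-CT. In BF-C replicates 1, 2 and 3 it was 12.1, 9.45 and 15.5, and in BF-D it was 14.3, 18.6 and 6.39. The groups of each comparison overlapped, and all but 1 of the BF libraries exceeded every BMSC library. The ratio of Col5a2 to Col5a1 ran the other way, at 8.07 to 11.7 in BMSC-C and 10.2 to 13.3 in BMSC-CT. It was 2.66 to 2.71 in BF-C and 2.92 to 4.50 in BF-D, where BF-D replicate 2 was the highest of the BF libraries. Every BMSC library lay above every BF library. The ratio of Col5a1 to Col11a1 was 3.36 to 6.30 in BMSC-C and 1.44 to 1.55 in BMSC-CT, without overlap.

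**Figure D4:**
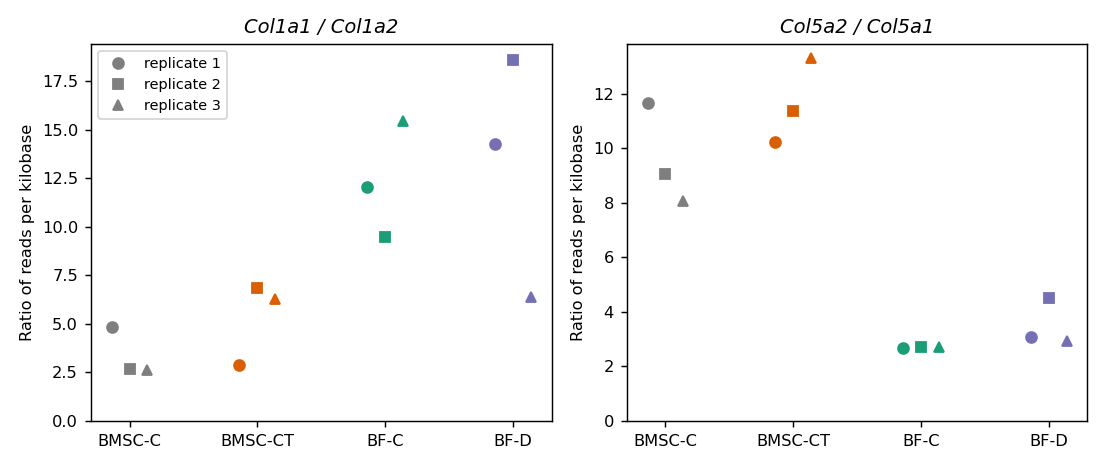
Ratio of reads per kilobase of Col1a1 to Col1a2 (left) and of Col5a2 to Col5a1 (right), with a point for each of the 3 libraries of a group. Col1a1 to Col1a2 spans 2.62 to 18.6, and Col5a2 to Col5a1 is at least 8.07 in BMSC libraries and at most 4.50 in BF libraries.

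Among chains with over 4 reads in each library, Col1a2 varied most between replicates of the BF groups. Col2a1, with 0 to 10 reads, varied more. For Col1a2 the highest library exceeded the lowest 3.44-fold in BF-D, 2.60-fold in BMSC-CT, 2.27-fold in BMSC-C and 1.68-fold in BF-C. The other 7 such chains reached at most 1.68-fold in BF-D and 1.14-fold in BF-C, but 2.64-fold in BMSC-CT. The standard deviation of Col1a2 within the BF groups was 0.695 on the log2 scale, larger than that of 97.6% of the 11015 genes with a mean of at least 50 normalized counts. Col3a1 was among the steadiest genes there, with 0.0324, larger than only 0.953% of genes.

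Docetaxel went with small differences in the chains of BF cells, and none of the 9 passed the main test. Col1a1, Col3a1, Col5a1, Col5a2, Col5a3 and Col11a1 were lower in every BF-D library than in every BF-C library, which is 6 of 9 chains, where 9.04% of all 17076 genes tested were lower and 7.78% higher without overlap. Limma called 0 chains and passed 0.0117% of all genes in either direction. At an unadjusted p under 0.05 there were 4 chains, all lower, and 2.94% of all genes were lower at that threshold. Also edgeR called 0 chains and 0.0117% of all genes, and DESeq2 called 2, Col3a1 and Col11a1, both lower, where that tool called 0.205% of all genes lower. The median log2 fold change was -0.27 over the 9 chains and -0.0044 over all genes. Marker lists differed without overlap as well: macrophage genes took 0.00439 to 0.00460% of reads in BF-C and 0.00603 to 0.00667% in BF-D, and mesenchymal stem cell genes took 0.591 to 0.596% and 0.504 to 0.574%. None of the 13 macrophage and 11 mesenchymal genes tested passed the main test. Without BF-D replicate 2, 3 macrophage genes were called higher. In that setting 1 mesenchymal gene was called higher and 2 lower, where 0.729% and 0.811% of all genes were. Among the mesenchymal genes Cxcl12 went from 29400 ± 378 to 22692 ± 1113 normalized counts. Thy1, Eng and Cd44 had positive estimates and the others negative ones. The part of these marker lists in the results for the chains was not tested.

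Col1a1 had 784393, 798708 and 776715 normalized counts in BF-C and 667976, 580123 and 685457 in BF-D. BF-D replicate 2 was the lowest library, and the groups did not overlap. The log2 fold change was -0.29 (SE 0.13, limma adjusted p = 0.706), and without BF-D replicate 2 it was -0.22 (adjusted p = 0.00713). Col1a2 had 49993, 64952 and 38615 in BF-C and 36011, 23943 and 82367 in BF-D, where replicate 3 was the highest of all 6 and replicate 2 the lowest. Its log2 fold change was -0.27 (SE 0.41, limma adjusted p = 0.827), and the sign turned without BF-D replicate 2, at 0.12 (adjusted p = 0.919).

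Col3a1 had 122848, 121065 and 122319 normalized counts in BF-C and 99112, 95710 and 93207 in BF-D. Both groups were tight and did not overlap. The log2 fold change was -0.35 (SE 0.09, limma adjusted p = 0.655), against an adjusted p of 0.0284 by DESeq2 and 0.0200 in the authors' deposited table. Without BF-D replicate 2 it was -0.34 with a limma adjusted p of 0.000307, so this estimate moved little with that library while its adjusted p did. Col11a1 had 7982, 8426 and 8276 normalized counts in BF-C and 6476, 5314 and 5745 in BF-D, with all BF-D libraries below. Its log2 fold change was -0.50 (SE 0.09, limma adjusted p = 0.413), the most negative of the chains, with an adjusted p of 0.0172 by DESeq2 and 0.0141 in the authors' deposited table. Without BF-D replicate 2 it was -0.43 (limma adjusted p = 0.000835).

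The type V chains lay without overlap below BF-C as well. Col5a1 had 19892, 19865 and 19867 normalized counts in BF-C and 16458, 10274 and 17221 in BF-D, with replicate 2 far below the others. Its log2 fold change was -0.48 (SE 0.19, limma adjusted p = 0.706), and it came to -0.24 (adjusted p = 0.00342) without that library. Col5a2 had 36400 to 37103 in BF-C and 31867 to 34855 in BF-D (log2 fold change -0.13, SE 0.08, limma adjusted p = 0.706), and Col5a3 had 744 to 774 and 569 to 687 (log2 fold change -0.25, SE 0.11, limma adjusted p = 0.706). Neither passed the test without BF-D replicate 2, with adjusted p values of 0.280 and 0.279. Without that library Col1a1, Col3a1, Col5a1 and Col11a1, 4 of 9 chains, were called lower, where 0.811% of all genes were. Once the dependence on gene length had been taken out in the same way as for BMSC, the log2 fold changes of Col1a1, Col3a1, Col5a1 and Col11a1 were -0.12, -0.22, -0.28 and -0.26, and no chain passed, beside 0.0644% of all genes.

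Col11a2 had 49.99, 52.3 and 57.0 normalized counts in BF-C and 53.2, 81.5 and 51.3 in BF-D, where replicate 2 was the highest and the groups otherwise overlapped. Its log2 fold change was 0.19 (SE 0.24, limma adjusted p = 0.794), and -0.021 without that library. The estimate for Col2a1, 0.07 (SE 0.88, limma adjusted p = 0.983), rests on at most 10 reads per library, and its sign turned with the pseudocount and with the library left out.

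**Figure D5:**
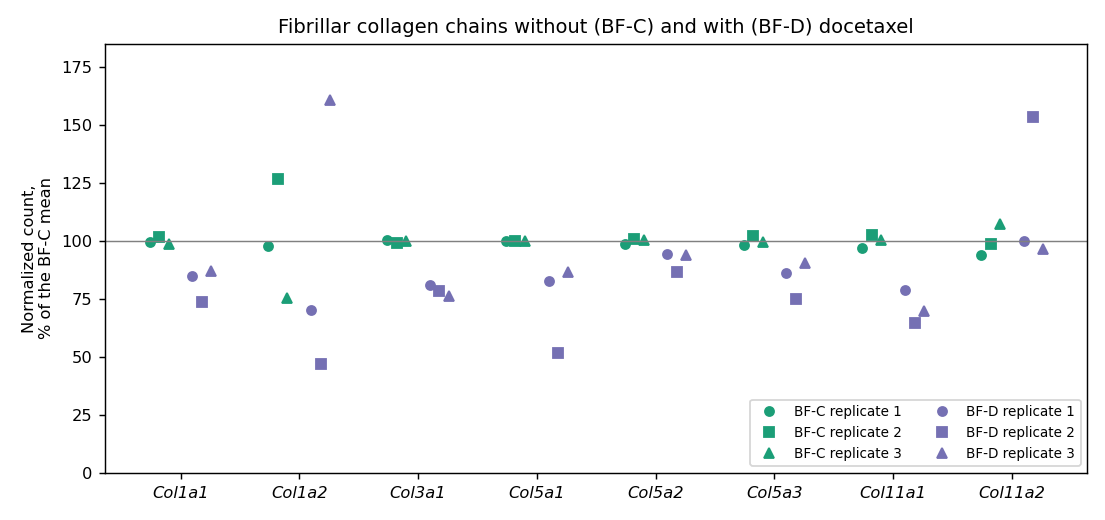
Normalized count of 8 chains in each of the 6 BF libraries, as a percentage of the BF-C mean, with Col2a1 left out for its 0 to 10 reads. For 6 chains all BF-D points lie below all BF-C points, while Col1a2 and Col11a2 overlap.

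The genes that act on these chains were counted from lists of known collagen biology. Of all genes, 7.70% were called higher and 10.9% lower with every library, and 19.5% and 23.5% with BMSC-CT replicate 3 left out, so counts under the latter setting are larger for genes at large. In BMSC-CT against BMSC-C, of 21 genes for chain folding and hydroxylation 6 rose and 3 fell. Leaving out BMSC-CT replicate 3 gave 10 and 3. Serpinh1, the collagen chaperone HSP47, rose from 10198 ± 529 to 30835 ± 6424 normalized counts (log2 fold change 1.58, limma adjusted p = 0.00739). P4ha3, a prolyl hydroxylase subunit, fell from 944 ± 99.4 to 170 ± 46.0 (log2 fold change -2.50, adjusted p = 0.00282), and P3h2 had 33.2 ± 7.79 in BMSC-C and no reads in BMSC-CT, which is at least 27.9-fold lower when the BMSC-CT group is set to 3 reads in all. The median log2 fold change of the list was 0.43, against -0.15 for all genes.

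Of 8 collagen receptors 2 rose and 3 fell, and 2 and 5 with that library left out. Itga11, the integrin subunit that binds fibrillar collagen on fibroblasts, rose from 116 ± 16.7 to 2161 ± 873 normalized counts (log2 fold change 4.12, limma adjusted p = 0.00153), and Itga2, of another collagen-binding integrin, fell from 112 ± 21.2 to 1.06 ± 1.83 (log2 fold change -6.12, adjusted p = 0.00257). Of 5 cross-linking enzymes 1 fell and none rose. This was Lox, lysyl oxidase, with 9177 ± 1568 against 174 ± 43.4 (log2 fold change -5.73, adjusted p = 0.000201). With BMSC-CT replicate 3 left out, Loxl1 and Loxl2 were called higher as well. Among 6 genes of collagen breakdown 1 rose and 1 fell (3 and 1 with that library left out). Ctsk, cathepsin K, rose from 1548 ± 111 to 5048 ± 1775, and Mmp9, a gelatinase, fell from 33214 ± 10134 to 2696 ± 761. Both proteases are also made by macrophages and osteoclasts. Of the 17 macrophage markers 5 rose (Lyz2, Cd68, Csf1r, Laptm5 and Spi1), 3 fell (Adgre1, Cd163 and Cd74) and 9 did not pass, with a median log2 fold change of -0.79. With BMSC-CT replicate 3 left out 7 rose and 9 fell. The part of such cells in these results was not tested.

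Of 15 tested partners on the fibril surface 4 rose and 3 fell, and 6 and 3 with BMSC-CT replicate 3 left out. Fmod, fibromodulin, a proteoglycan that binds type I fibrils, rose from 353 ± 32.0 to 5326 ± 384 normalized counts (log2 fold change 3.91, limma adjusted p = 0.000196). Col12a1, a collagen that decorates fibrils, fell from 62764 ± 8210 to 5581 ± 2075 (log2 fold change -3.56, adjusted p = 0.00181). Of the related fibrillar chains of the third clade, Col27a1 fell from 430 ± 78.6 to 21.7 ± 8.14 (log2 fold change -4.30, adjusted p = 0.00146), so a fibrillar chain outside the 9 moved in the opposite direction. Of 7 propeptide-removal genes 1 fell, Tll1. Of 16 transcription factors known to bind collagen genes 4 fell and none rose, and 6 fell and 1 rose with that library left out, where the shares over all genes were 10.9% and 23.5% lower. The 4 were Smad3, Ets1, Runx2 and Nfyb, a subunit of NF-Y, with Ets1 at 1042 ± 74.5 against 214 ± 117 (log2 fold change -2.49, adjusted p = 0.0219) and Smad3, a mediator of TGF-β signals, at 2140 ± 93.4 against 682 ± 236 (log2 fold change -1.72, adjusted p = 0.0147). The other NF-Y subunits listed, Nfya and Nfyc, did not pass, with log2 fold changes of -0.17 and -0.05 (limma adjusted p = 0.769 and 0.917).

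In BF-D against BF-C none of the 81 genes tested from these lists passed by limma or edgeR, 11 had an unadjusted p under 0.05 by each of these tools, and DESeq2 called Mmp9 and Mmp13 higher and Col14a1 lower. Over all genes 6.20% had an unadjusted p under 0.05 by limma and 6.14% by edgeR, and DESeq2 called 0.217% higher and 0.205% lower. The smallest unadjusted p by limma among the 81 genes was that of Col14a1, a fibril-associated collagen, at 3312 ± 162 against 1790 ± 251 normalized counts (log2 fold change -0.90, limma adjusted p = 0.215). Mmp9 was at 71246 ± 1321 against 107956 ± 3538 (log2 fold change 0.60, adjusted p = 0.231), and Mmp13, a collagenase, at 12952 ± 546 against 19729 ± 1601 (log2 fold change 0.60, adjusted p = 0.231). Without BF-D replicate 2, 6 of 17 fibril surface partners were called lower, among them Col14a1, Col6a1, Col6a2 and Col6a3, and 2 of 6 genes of breakdown, Mmp9 and Mmp13, were called higher. Of 20 chain folding genes 2, Serpinh1 and Creb3l1, were called lower, and of 8 receptors 1, Itga2, higher, where 0.811% of all genes were called lower and 0.729% higher.

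The pattern of each chain over the 12 libraries was compared with that of 15135 genes by the root mean square difference of centred log2(reads per 1000000 + 1), a description without a test. The patterns span BMSC and BF libraries, so the untested difference between these enters every value, and near genes may share little else. Col1a1 was closest to Clec11a, a secreted lectin of bone marrow stroma, at 0.25, to Wisp2 at 0.30 and to Pdgfrl at 0.33, where its own spread was 2.0. Of the other chains, Col3a1 ranked 10 and Col11a1 ranked 11 in likeness to Col1a1, while its partner Col1a2 ranked 56. Col3a1 was closest to Itga11 at 0.52, then Col1a1 at 0.58 and Mmp23 at 0.64. Col11a1 was closest to Spon1 at 0.27, Itgbl1 at 0.31 and Slc43a3 at 0.32, and Spon1 was also among the nearest to Col1a2, at 0.54, with Mybpc1 at 0.51 and Rnf144a at 0.56. The nearest genes of Col5a1 were Gpc6, Pik3r3 and Arhgap28 at 0.20 to 0.30, those of Col5a2 were Specc1, Ephb3 and Rai14 at 0.099 to 0.15, those of Col5a3 were Olfml2a, Plxdc2 and Pawr at 0.17 to 0.25, and those of Col11a2 were Maged2, P4ha2 and Jam3 at 0.11 to 0.15. Chains with a narrower range over the libraries have smaller differences to all genes, so these values are not compared between chains.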

How the data were processed

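RNA sequencing of 12 rat libraries was analysed, in 4 groups of 3. The library kit was NEBNext Ultra, per the labels. Bowtie 0.12.2 and the mouse build mm8 are named in the submitters' processing notes. The gene IDs are rat, so the build behind the counts is unknown, and only RefSeq positions in GRCr8 are printed. The authors deposited 1 table per comparison, and the deposited signal values are normalized counts, each a whole number of reads divided by the factor of its library. Reads could be recovered, since 100% of values came out whole with a tolerance of 0.01 (1 read was worth 0.813 to 1.61 normalized counts). The authors' deposited log2 fold changes and p-values were used only where named. No column of values was left without a sample.

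The main test was limma 3.58.1 with a trend in R 4.3.3, on log2(normalized count + 1), for genes whose mean reached 1 normalized count, with Benjamini-Hochberg adjustment over all genes tested and a threshold of 0.05. Fold changes are on that scale. An exact permutation test of 3 against 3 cannot go below 0.1. The design foresaw a count test should the files hold raw reads. They hold normalized counts, so edgeR 4.0.16 and DESeq2 1.42.0 ran on the recovered reads as alternatives. The procedure was also run on simulated data. Those counts were drawn without a dependence on gene length, so they do not cover libraries such as BMSC-CT replicate 3 and BF-D replicate 2. Strand was not stated for the counting, so reads of overlapping genes on opposite strands cannot be told apart. Other alternatives covered pseudocounts, filters, quantile, total-read and TMM scaling, removal of the length trend, a replicate block and each library left out. The length trend of each library was fitted to its deviation from the mean over all libraries of its comparison, treated and control together.

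The members and lists were chosen with earlier results of these data known. The named genes are the 9 chains, the 3 genes nearest to each chain, up to 2 genes per pathway list and comparison with the smallest adjusted p, and 4 macrophage markers. Serpinh1, Runx2, Nfya, Nfyb, Nfyc, Laptm5, Spi1, Cd163, Cd74, Loxl1, Loxl2, Col6a1, Col6a2, Col6a3, Sox9, Cxcl12, Thy1, Eng and Cd44 fall outside this rule and were named after their values were seen.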

Additional observations from a re-analysis of the deposited data

How the results depend on the processing

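Limma called 1295 genes higher and 1839 lower in BMSC-CT, and 1 higher and 1 lower in BF-D (556 and 502 at an unadjusted p under 0.05). In BMSC-CT the higher calls numbered 787 with total-read scaling, 2749 with DESeq2 and 2103 with the length trend removed, and leaving out 1 library gave 249 to 3269 higher and 487 to 3935 lower. In BF-D the higher and lower calls were 0 and 0 at a mean of at least 10 or with a replicate block, 37 and 35 with DESeq2, 7 and 4 with the length trend removed and 0 to 125 and 0 to 139 without 1 library, and quantile scaling gave 2 higher. Whether the replicate numbers pair the libraries is not known. Same-numbered libraries had correlations of 0.199, -0.0209 and 0.183 for BMSC and 0.0140, 0.0196 and -0.00285 for BF. Differently numbered ones ran from -0.225 to 0.0891 for BMSC and from -0.0348 to 0.0277 for BF. With 3 libraries per group these values cannot settle whether the BMSC libraries are paired. The replicate block gave 1315 and 1688 calls in BMSC-CT and changed no call of a chain. The following signs turned, and the cause was not tested. In BMSC-CT, Col5a1 was at 0.029 with edgeR, 0.042 with DESeq2, 0.72 after removal of the length trend and between -0.35 and 0.35 without 1 library, Col5a2 at -0.36 with quantile and -0.20 with total-read scaling, and Col11a2 at 0.30 with the length trend removed. In BF-D, leaving out 1 library gave -0.77 to 0.12 for Col1a2, -0.021 to 0.31 for Col11a2 and -0.73 to 1.03 for Col2a1, which was at -0.12 with a pseudocount of 0.5. The turned signs were those without BMSC-CT replicate 3 for Col5a1, without BF-D replicate 2 for Col1a2, Col11a2 and Col2a1, and without BF-C replicates 2 and 3 or BF-D replicate 3 for Col2a1. Quantile scaling sets Col1a1, the most read gene of all 6 BF libraries, to the same value in each. Total-read scaling moved the median of all genes in BMSC-CT from -0.15 to -0.53 on the log2 scale. Depth limits Col2a1 and Col11a2.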
